A study of Mus musculus with 12 samples.

Results

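The trophoblast genes described here are 10 symbols that mark the cell types of the mouse placenta, namely Prl3d1, Prl2c2, Prl3b1, Tpbpa, Gcm1, Syna, Hand1, Elf5, Ascl2 and Zfp36l3. They were taken by symbol from the 38986 genes listed for each library, and all 10 were found. RNA was sequenced from teratomas, the mixed tumours that mouse ES cells form under the skin of an immunodeficient host. R1 mouse ES cells carrying a lentiviral vector with a CAG promoter were injected into 8-week-old male NOD-PrkdcEM1 mice, and the tumours were collected at day 21. The 4 groups of 3 libraries carried the empty vector (ET), wild-type Dnmt3L (WT), or Dnmt3L in which a lysine that can be acetylated was replaced by arginine (K238R and K412R). All 4 groups, the controls included, were virally infected and puromycin-selected, and whether each line is 1 clone is not given in the sources used here. Dnmt3L is a partner of the de novo DNA methyltransferases without catalytic activity of its own. The study compared WT and the mutants with ET to read the effect of the transgene, and the mutants with WT to read that of each lysine.

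Trophoblast is the outer lineage of the embryo. It is set aside before implantation and builds most of the placenta. Its stem cells give rise to giant cells that invade the uterus and secrete hormones of the prolactin family, to spongiotrophoblast and glycogen cells that form the junctional zone, and to the fused syncytiotrophoblast that exchanges nutrients with maternal blood. ES cells seldom enter this lineage in culture, and DNA methylation is known as part of the barrier between them.

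Total estimated counts per library were between 16957677 and 18546100, and a single RNA, Gm26917, took 7.47% to 13.9% of them. The Dnmt3l transcript, which checks the labels, had 39, 11 and 137 counts in ET and 2941, 3643 and 3581 in WT. It had 699, 677 and 463 counts in K412R, but only 35, 20 and 10 where the label is K238R, which lay at the level of ET. They are therefore called the K238R-labelled libraries throughout, and their comparison with WT is given as one between labels and not as a reading of that lysine. For the trophoblast genes, 3 libraries stood apart from their group. ET replicate 2 was the lowest ET library for 8 of the 10 genes, WT replicate 1 the highest WT library for 5, and K238R-labelled replicate 1 the highest of its group for 6. The comparisons that moved most without them are given both ways. These libraries were picked by the levels of the same genes, so fits without them are no independent support. Leaving out ET replicate 2 raises the ET mean of every gene for which it was lowest. In comparisons that hold no ET library, leaving it out acts mainly through the spread estimated over all groups.

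The 10 genes were rare transcripts in every teratoma. Levels are given as raw counts or as counts scaled to a library total of 1000000 (CPM), which compare a gene between libraries and not one gene with another. Summed over the 10 genes, the level was 9.38, 4.36 and 11.3 CPM in ET and 4.89, 1.78 and 2.28 CPM in WT. It was 32.4, 11.1 and 16.0 CPM in the K238R-labelled libraries and 7.69, 12.3 and 9.21 CPM in K412R. Every K238R-labelled library and every K412R library lay above every WT library, while ET and WT overlapped through ET replicate 2 and WT replicate 1. The mean level was lowest in WT for 7 of the 10 genes, in ET for Elf5 and in K412R for Ascl2, while Prl2c2 had 2 counts in all in both WT and K412R, and it was highest in the K238R-labelled libraries for 7 and in K412R for 3. Each K238R-labelled library held counts of all 10 genes, and each WT library held counts of 6. These are bulk samples, in which fewer trophoblast cells and less RNA per cell cannot be told apart.

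**Figure D1:**
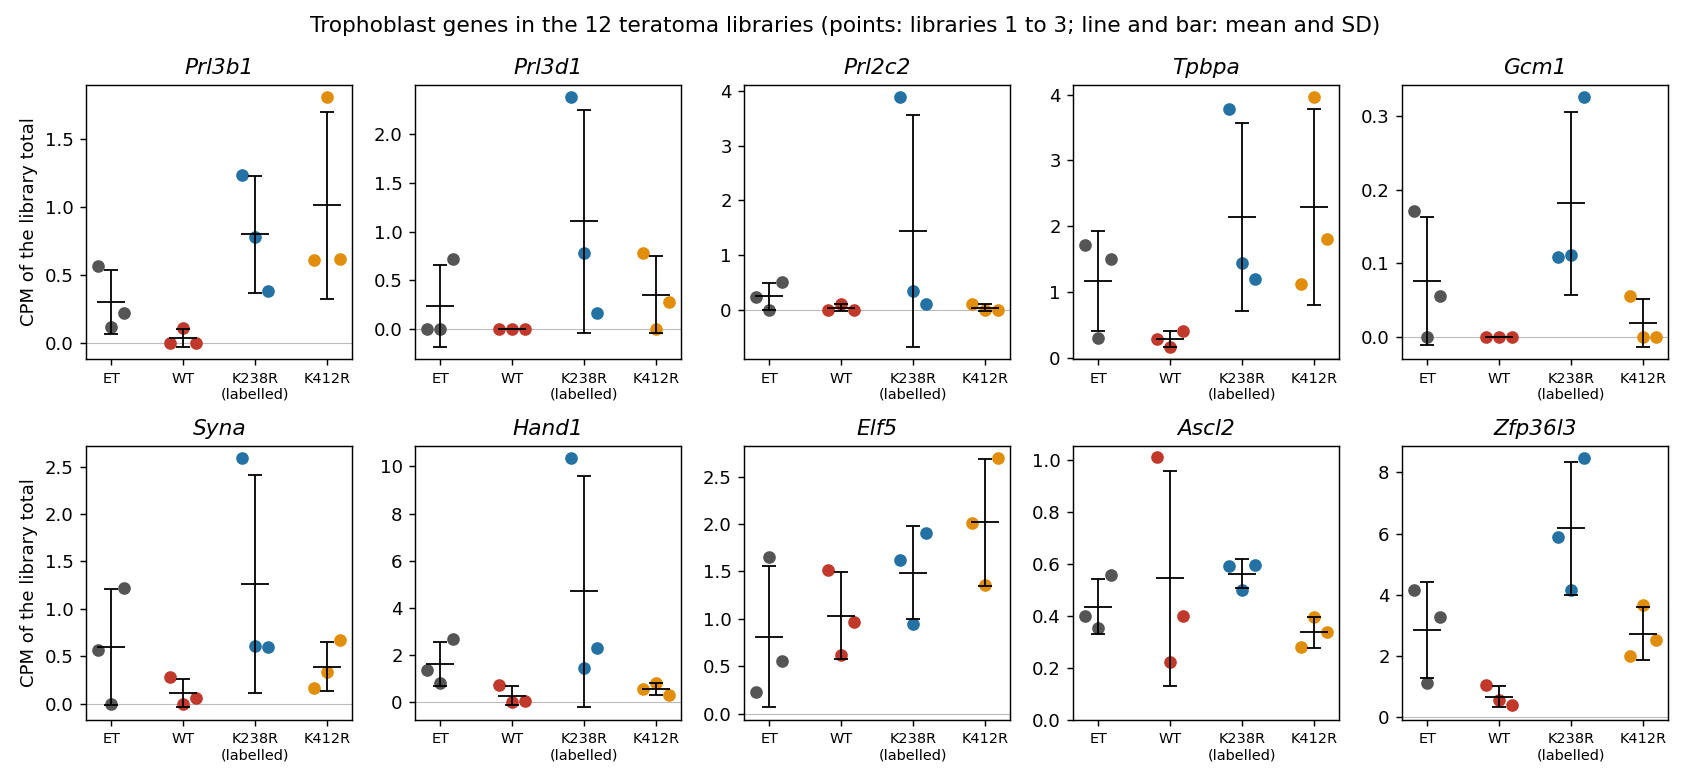
Level of each of the 10 trophoblast genes in CPM of the library total (vertical axis, one scale per gene) in the 4 groups, with a point per library and the mean and SD of 3 libraries as a line and bar. WT lies lowest for most genes, Elf5 and Ascl2 show no such gap, and a single K238R-labelled library is far above the others for Prl2c2 and Hand1.

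A change was tested with edgeR's quasi-likelihood test over the 18405 genes that passed its filter on low counts, and p-values were adjusted by Benjamini-Hochberg over all of them. The filter asked for about 0.559 CPM in at least 3 of the 12 libraries, and 8 of the 10 genes passed it. Gcm1 and Prl2c2 did not. Prl3b1, Prl3d1, Tpbpa and Syna had no WT library over that level and passed through the other groups, so that their place among the genes tested is not independent of their level in WT. Log2 fold changes carry their standard error (SE) and are on the scale of TMM-scaled counts. With 3 libraries against 3, an exact permutation test of a single gene cannot go below p = 0.1. Single libraries moved the calls over all genes. In WT against ET, 9 genes had an adjusted p under 0.05 with all 12 libraries. The number was 5784 of 18775 genes without ET replicate 2 and 1309 of 18784 without WT replicate 1.

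In RefSeq's annotation Prl3b1, Prl3d1, Prl2c2 and Tpbpa lie on chromosome 13, Gcm1 on 9, Syna on 5, Hand1 on 11, Elf5 on 2, Ascl2 on 7 and Zfp36l3 on X. Promoter sequence was at hand for 8 of the 10 genes in RefSeq's mouse build GRCm38.p6. The 250 bases before the annotated start of the 4 genes below are shown because they include both genes that passed the test and the hormone and spongiotrophoblast genes that were lowest in WT. They are written 5′ to 3′ in the direction of the gene, and capitals mark matches of TGANTCA, the core that AP-1 factors bind, on either strand.
Prl3d1 (chr13:27093939-27094188, plus strand): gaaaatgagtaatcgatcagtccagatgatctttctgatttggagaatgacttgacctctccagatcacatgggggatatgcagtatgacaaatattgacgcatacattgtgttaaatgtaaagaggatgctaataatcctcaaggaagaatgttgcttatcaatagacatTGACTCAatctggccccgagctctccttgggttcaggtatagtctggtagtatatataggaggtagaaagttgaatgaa
Tpbpa (chr13:60941937-60942186, minus strand): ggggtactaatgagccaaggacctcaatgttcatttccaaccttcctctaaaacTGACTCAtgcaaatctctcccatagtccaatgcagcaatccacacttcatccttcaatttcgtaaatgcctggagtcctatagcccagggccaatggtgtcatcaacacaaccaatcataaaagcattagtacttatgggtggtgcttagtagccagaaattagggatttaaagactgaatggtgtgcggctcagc
Prl3b1 (chr13:27242180-27242429, plus strand): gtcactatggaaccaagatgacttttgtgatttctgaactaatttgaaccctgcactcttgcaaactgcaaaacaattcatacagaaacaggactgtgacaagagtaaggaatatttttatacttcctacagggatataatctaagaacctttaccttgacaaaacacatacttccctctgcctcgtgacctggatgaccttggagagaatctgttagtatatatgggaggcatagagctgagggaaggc
Zfp36l3 (chrX:53776395-53776644, minus strand): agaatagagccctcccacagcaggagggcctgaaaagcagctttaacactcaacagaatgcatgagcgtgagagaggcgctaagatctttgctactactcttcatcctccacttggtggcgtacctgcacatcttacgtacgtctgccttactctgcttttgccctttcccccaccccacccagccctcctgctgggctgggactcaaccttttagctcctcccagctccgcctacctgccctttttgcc
A match stood once in the Prl3d1 window and once in the Tpbpa window, none of them overlapping another motif searched, and there was none in the Prl3b1 and Zfp36l3 windows. Over all 32851 promoter windows of that length, 6.75% held the core. The E-box letters CANNTG, which basic helix-loop-helix factors such as Hand1 and Ascl2 bind, were found 2 times in the Prl3d1 window and 1 time in the Zfp36l3 window, and 66.2% of all windows held them. GATAA stood 1 time in the Prl3d1 window, against 22.6% of windows in all. None of the 4 windows held ATGCGGG, the letters of a GCM factor, found in 1.19% of all windows, and GGAA, the core of ETS factors such as Elf5, stood in all 4 and in 93.4% of all windows. Each motif was searched on both strands. CpG dinucleotides, the substrate of the DNA methyltransferases, numbered 1 in the Prl3b1 window, 3 in that of Prl3d1, 2 in that of Tpbpa and 6 in that of Zfp36l3. The median over all windows was 6, and the Ascl2 window held 19. A match of letters is a description of the window and not a site in use.

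Zfp36l3, an X-linked gene of the tristetraprolin family of mRNA-destabilizing proteins that is expressed in rodent placenta, held the most reads of the 10. In WT it had 19, 10 and 7 counts, against 73, 19 and 59 in ET. The K238R-labelled libraries had 109, 75 and 156 counts and K412R had 36, 65 and 45. Every WT library lay below every library of the other 3 groups in CPM, where ET replicate 2 stood at 1.12 and WT replicate 1 at 1.07. Every K238R-labelled library lay above every other library, although the margin to ET was thin (4.17 CPM in K238R-labelled replicate 2 and 4.15 CPM in ET replicate 1). The WT mean was 0.675 ± 0.350 CPM (SD, n = 3), that of ET 2.85 ± 1.56, that of K412R 2.74 ± 0.854 and that of the K238R-labelled libraries 6.17 ± 2.17. Zfp36l3 rose in the K238R-labelled libraries against WT by 3.14 on the log2 scale (SE 0.51, adjusted p = 0.0432), the only call among the 10 genes in this comparison. The call depended on the settings, as its adjusted p lay between 1.57e-06 and 0.201 over 20 alternatives, and without K238R-labelled replicate 1 the log2 fold change was 3.17 with an adjusted p of 0.128. K412R stood 2.00 above WT (SE 0.51, adjusted p = 0.0671), and WT stood at -2.05 against ET (SE 0.51, adjusted p = 0.100), neither past the threshold. Without ET replicate 2, WT against ET gave -2.42 (SE 0.42, adjusted p = 0.00469), and without WT replicate 1 it gave -2.52 (SE 0.60, adjusted p = 0.0425). K412R against WT passed the threshold without the same libraries, at 2.01 (adjusted p = 0.0154) and 2.46 (adjusted p = 0.0439). K412R and ET overlapped, with a log2 fold change of -0.05 (SE 0.46).

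The hormones of the giant cells and of the later placenta come from the prolactin family. Prl3d1, placental lactogen I, and Prl2c2, proliferin, mark giant cells early in placental development, and Prl3b1, placental lactogen II, is made later. Prl3b1 had 10, 2 and 4 counts in ET and 0, 2 and 0 in WT. It had 23, 14 and 7 counts in the K238R-labelled libraries and 11, 32 and 11 in K412R. All WT libraries lay below all others in CPM, although the margin to ET rests on 1 pair of libraries with 2 counts each (0.118 CPM in ET replicate 2 and 0.112 CPM in WT replicate 2). The summed counts were 16 in ET, 2 in WT, 44 in the K238R-labelled libraries and 54 in K412R. Prl3b1 rose in K412R against WT (log2 fold change 4.51, SE 1.01, adjusted p = 0.0454). The ratio of the summed counts scaled to depth was 26.9, with an exact 95% interval from 7.10 to 228 that covers counting error only. Over 20 alternatives the adjusted p lay between 0.00647 and 0.199, and it was 0.0537 without K238R-labelled replicate 1 and 0.0598 without WT replicate 1. In the K238R-labelled libraries the ratio to WT was 21.3 (5.56 to 182), without passing the threshold (log2 fold change 4.14, SE 1.03, adjusted p = 0.104), but with an adjusted p of 0.0392 when ET replicate 2 was left out. That adjusted p was 0.303 without K238R-labelled replicate 1 and 0.120 without WT replicate 1. The ratio of WT to ET was 0.123 (0.0138 to 0.524, adjusted p = 0.144).

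Prl3d1 was found unevenly. It had 0, 0 and 13 counts in ET, 0 in every WT library, 44, 14 and 3 in the K238R-labelled libraries and 14, 0 and 5 in K412R. No WT library held a read of it, which allows up to 0.0563 CPM when 3 counts over the group are taken as the limit. Against that limit Prl3d1 was 19.7-fold higher in the K238R-labelled libraries, 6.31-fold higher in K412R and 4.39-fold higher in ET. These folds leave out the error of the counts above the limit. None of these comparisons passed the threshold (adjusted p = 0.185, 0.256 and 0.258), and the ET value rests on replicate 3 alone. K238R-labelled replicate 1 held 44 of the 61 counts of its group, and without it their mean was 0.470 CPM. K412R replicate 2 had no count. Of the 31-base stretches of its RefSeq transcript, 59.5% also occur in Prl3d3 and 58.4% in Prl3d2, so that reads could be divided among these genes by the quantification. Prl2c2 had 4, 0 and 9 counts in ET, 0, 2 and 0 for WT, 72, 6 and 2 in the K238R-labelled libraries and 2, 0 and 0 in K412R. A single library carried 72 of the 80 counts of the K238R-labelled libraries, and without it their mean was 0.221 CPM, within the range of ET. The ratio to WT with all 3 libraries was 38.8 (10.4 to 326, counting error only). The groups overlapped at 2 counts. Prl2c2 shares 87.6% of its 31-base stretches with Prl2c3 and only 5.54% occur in no other gene, so its counts are uncertain. K412R, in which Prl3b1 was high, had 2 counts of Prl2c2 in all, as WT did.

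Tpbpa, a secreted protein that marks spongiotrophoblast and its precursors in the ectoplacental cone, had 30, 5 and 27 counts in ET and 5, 3 and 7 in WT. It had 70, 26 and 22 counts in the K238R-labelled libraries and 20, 70 and 32 in K412R. ET replicate 2 lay among the WT libraries, and every K238R-labelled and K412R library lay above WT. Means were 1.17 ± 0.762 CPM in ET, 0.283 ± 0.116 in WT, 2.14 ± 1.42 in the K238R-labelled libraries and 2.29 ± 1.48 in K412R. Against WT the log2 fold change was 2.85 (SE 0.76, adjusted p = 0.110) in the K238R-labelled libraries and 2.98 (SE 0.76, adjusted p = 0.0656) in K412R, and WT stood at -2.00 against ET (SE 0.78, adjusted p = 0.132). Without ET replicate 2 all 3 passed the threshold, at 2.85 (adjusted p = 0.0305), 2.99 (adjusted p = 0.0204) and -2.45 (adjusted p = 0.0217). The first 2 hold no ET library, and there the SE fell to 0.63 with the log2 fold change nearly the same. Without WT replicate 1 none did, at 2.83 (adjusted p = 0.133), 2.96 (adjusted p = 0.0799) and -1.98 (adjusted p = 0.165). Leaving out K238R-labelled replicate 1, which held 70 of the 118 counts of its group, gave 2.16 against WT (SE 0.76, adjusted p = 0.354). Of the transcript, 6.41% of the 31-base stretches are shared with Tpbpb.

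The genes of the syncytiotrophoblast were unevenly found. Gcm1, the transcription factor that starts branching and syncytial differentiation, had 3, 0 and 1 counts in ET, 0 in every WT library, 2, 2 and 6 in the K238R-labelled libraries and 1, 0 and 0 in K412R. It was the only gene of the 10 that no library held above 0.559 CPM. In the K238R-labelled libraries it was 3.23-fold higher than the limit in WT, with the error of their counts left out. Syna, syncytin A, the envelope protein of retroviral origin that fuses trophoblast cells, had 10, 0 and 22 counts in ET and 5, 0 and 1 in WT. It had 48, 11 and 11 counts in the K238R-labelled libraries and 3, 6 and 12 in K412R. The libraries labelled K238R lay above WT without overlap, with a log2 fold change of 3.37 (SE 1.17, adjusted p = 0.187) that was 2.32 (SE 1.24, adjusted p = 0.530) without their replicate 1 and 5.12 (SE 1.66, adjusted p = 0.130) without WT replicate 1, which held 5 of the 6 WT counts. WT stood at -2.34 against ET (SE 1.24, adjusted p = 0.220), and without ET replicate 2, which had no count of Syna, at -2.90 (SE 1.01, adjusted p = 0.0480), or at -4.08 (SE 1.76, adjusted p = 0.133) without WT replicate 1. K412R overlapped with WT (log2 fold change 1.72, SE 1.29, and 3.46, SE 1.85, without WT replicate 1) and with ET (-0.62, SE 1.04).

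Hand1, the transcription factor required for giant cells that also acts in heart and extraembryonic mesoderm, had 24, 14 and 48 counts in ET and 13, 0 and 1 in WT. It had 192, 26 and 42 counts in the K238R-labelled libraries and 10, 14 and 5 in K412R. The WT libraries lay below those of ET and below those labelled K238R, and K412R lay below both of the latter groups but overlapped with WT. The margin between K412R and ET rests on 1 pair of libraries with 14 counts each. The log2 fold change of the K238R-labelled libraries against WT was 4.09 (SE 1.02, adjusted p = 0.104), and it was 2.76 (SE 0.94, adjusted p = 0.333) without replicate 1, which held 192 of their 260 counts. It was 7.00 (SE 1.41, adjusted p = 0.0669) without WT replicate 1, and DESeq2 called it with all libraries (adjusted p = 0.00244). WT stood at -2.59 against ET (SE 1.04, adjusted p = 0.139), and without WT replicate 1, which held 13 of the 14 WT counts, at -5.50 (SE 1.49, adjusted p = 0.0504). K412R stood 1.03 above WT (SE 1.13, adjusted p = 0.601), and 3.94 (SE 1.66, adjusted p = 0.154) without WT replicate 1. K412R stood at -3.06 against the K238R-labelled libraries (SE 0.93, adjusted p = 0.229 from edgeR). DESeq2 gave an adjusted p of 0.0490 for it, and without K238R-labelled replicate 1 edgeR gave -1.73 (SE 0.87, adjusted p = 0.497). Cardiac genes were present in the same teratomas: over 12 heart and lateral mesoderm genes the summed level ranged from 53.8 to 118 CPM in ET, 51.0 to 74.3 in WT, 61.1 to 90.2 in the K238R-labelled libraries and 40.7 to 56.3 in K412R. Members of this list differed widely. Nkx2-5, Mesp1 and Myl7 had at most 8 counts in a library. The most abundant were Isl1 (97 to 924 counts), Tbx20 (30 to 710), Tnnt2 (12 to 687) and Myh6 (90 to 351). Their part in the Hand1 level was not tested.

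Elf5 and Ascl2, which act in the stem and progenitor cells of the trophoblast, were the members whose mean was not lower in WT than in ET. Elf5, an ETS factor that keeps trophoblast stem cells in their state and is also made by mammary and other glandular epithelium, had 4, 28 and 10 counts in ET and 27, 11 and 17 in WT. It had 30, 17 and 35 counts in the K238R-labelled libraries and 36, 24 and 48 in K412R. All groups overlapped with WT, and ET replicate 2, the lowest ET library for most other genes, was the highest for Elf5. Means were 0.812 ± 0.745 CPM in ET, 1.03 ± 0.456 in WT, 1.49 ± 0.491 in the K238R-labelled libraries and 2.02 ± 0.669 in K412R. The log2 fold change was 0.38 (SE 0.59) for WT against ET, 0.48 (SE 0.57) for the K238R-labelled libraries against WT and 0.94 (SE 0.56) for K412R against WT, with adjusted p of 0.686, 0.654 and 0.332. K412R against ET gave 1.32 (SE 0.57, adjusted p = 0.617), and 2.36 (SE 0.54, adjusted p = 0.0558) without ET replicate 2. As a sum, epithelial genes were highest in the same group. The summed level of 10 squamous and glandular epithelium genes, all tested, ranged from 460 to 632 CPM in K412R, above the 250 to 399 CPM of ET, the 337 to 400 CPM of WT and the 254 to 319 CPM of the K238R-labelled libraries, and Krt8, Krt18 and Krt5 were abundant in every library. By log2 fold change, all 10 were higher in K412R than in ET or the K238R-labelled libraries. Against WT, 7 were higher in K412R and 3 were lower. The part of these epithelial genes in the Elf5 level was not tested. Ascl2, the maternally expressed factor needed for spongiotrophoblast, had 7, 6 and 10 counts in ET, 18, 4 and 7 for WT, 11, 9 and 11 in the K238R-labelled libraries and 5, 7 and 6 in K412R. It overlapped between WT and every other group, and its log2 fold changes were 0.33 (SE 0.50) for WT against ET, 0.01 (SE 0.49) for the K238R-labelled libraries against WT and -0.69 (SE 0.52) for K412R against WT. Without WT replicate 1, which held 18 of the 29 WT counts, they were -0.44, 0.78 and 0.08. K412R lay below the K238R-labelled libraries without overlap (-0.70, SE 0.51, adjusted p = 0.666).

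Taken by comparison, the mean of 8 of the 10 genes was lower in WT than in ET, those of Elf5 and Ascl2 being higher. None of the 8 tested genes passed edgeR's adjusted threshold, which 0.0489% of all genes tested passed. At an unadjusted p under 0.05, 4 of them were lower, beside 15.1% of all genes tested. DESeq2 called 1 (Zfp36l3), beside 10.3% in either direction (1014 genes lower). Prl3b1, Hand1 and Zfp36l3 were lower without overlap, which held in this direction for 11.4% of all genes tested. Over all 10 genes, fitted without the filter, the median log2 fold change was -2.41, or -2.09 with genes at 0 in WT set to their limit, and the median over the 31068 genes with a count was 0.

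Against WT, the mean of all 10 genes was higher in the K238R-labelled libraries. The test called 1 of the 8 (Zfp36l3), where 0.12% of all genes tested were called higher. At an unadjusted p under 0.05, 6 were higher, beside 7.93% of all genes, and DESeq2 called 5, beside 4.27% in either direction (343 genes higher). Prl3b1, Prl3d1, Tpbpa and Syna are among the 6 with an unadjusted p under 0.05 and passed the filter only through groups other than WT. The genes were also chosen with earlier results of these data known, so the shares do not measure an enrichment. The same limits hold for the counts of the other 2 comparisons with WT, which include Prl3b1 and Tpbpa. Without overlap, 7 of the 10 were higher, or 6 of the 8 tested, where 12.7% of all genes tested were. The median over the 10 was 3.74, or 3.26 with genes at 0 set to their limit. In K412R, 8 of the 10 means were above WT, that of Ascl2 was lower and Prl2c2 had 2 counts in each group. Here the test called 1 of the 8 (Prl3b1), where 1.34% of all genes tested were called higher. At an unadjusted p under 0.05, 3 were higher, beside 10.2%, and DESeq2 called 3, beside 9% in either direction (771 genes higher). Prl3b1, Tpbpa and Zfp36l3 were higher without overlap, against 14.4% of all genes tested. The median over the 10 was 1.80. Both comparisons use the same 3 WT libraries, as does that of WT with ET, so the 3 are not independent of each other.

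**Figure D2:**
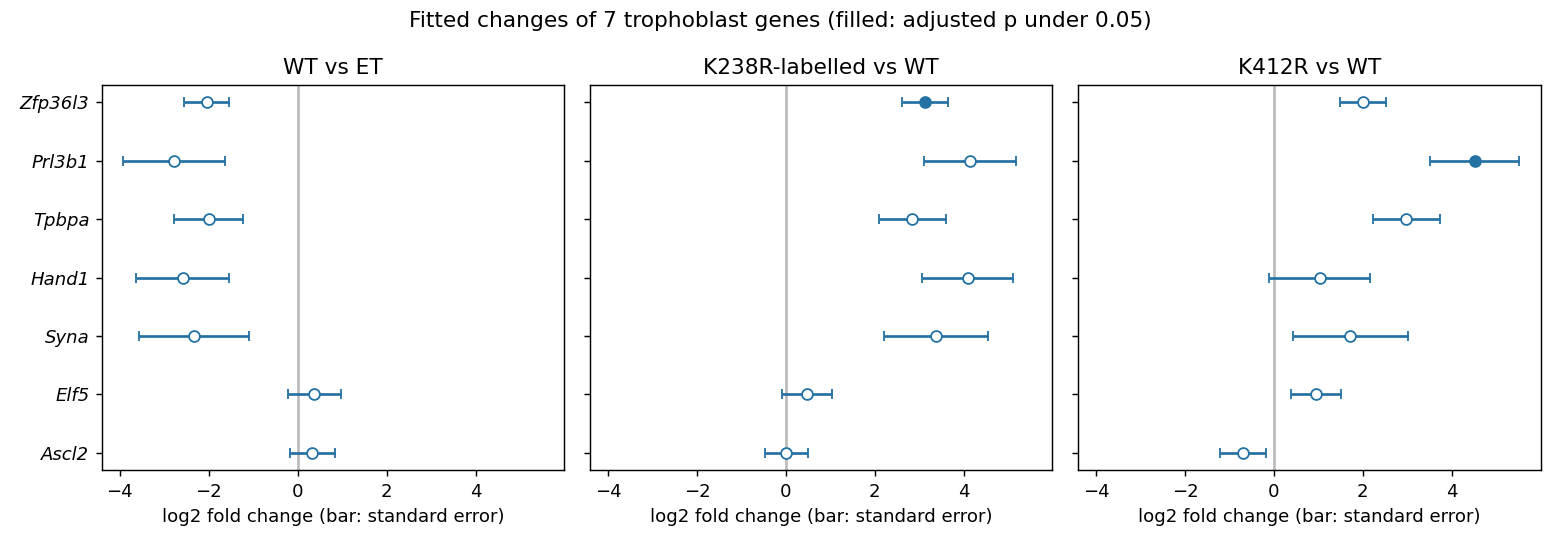
Log2 fold changes (horizontal axis) of 7 of the trophoblast genes in the 3 comparisons that involve WT, with the standard error as a bar and filled points where the adjusted p was under 0.05. Zfp36l3 against WT in the K238R-labelled libraries and Prl3b1 in K412R are filled, and Elf5 and Ascl2 lie within 1 of 0 in all 3. Prl3d1 is left out because WT held no count of it.

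With ET as the control, the mean of all 10 genes was higher in the K238R-labelled libraries than in ET, with a median log2 fold change of 1.13 over the 10, but no gene of the series passed edgeR's test (0% of those tested), and of the 8 only Zfp36l3 had an unadjusted p under 0.05 (log2 fold change 1.09, SE 0.45, adjusted p = 0.806), where 2.52% of all genes were higher. It was also the only one above ET without overlap, against 4.93%, and DESeq2 called none of the 8, beside 0.0761% of all genes. K412R against ET gave no call either (0% of those tested). Prl3b1 (1.73, SE 0.74, adjusted p = 0.613) and Elf5 had an unadjusted p under 0.05, where 4.38% of all genes were higher, and DESeq2 called none, beside 0.489%. Prl3b1 lay above ET and Hand1 below it (-1.56, SE 0.95) without overlap, against 5.01% and 5.74% of all genes in those directions. Against the K238R-labelled libraries, K412R had the lower mean for 7 genes and the higher for Prl3b1, Tpbpa and Elf5. None of the 8 was called by edgeR, beside 0.0217% of all genes. Zfp36l3 (-1.14, SE 0.45, adjusted p = 0.345) and Hand1 were lower at an unadjusted p under 0.05, beside 4.82%. DESeq2 called Hand1, beside 2.03% in either direction (124 genes lower). Without overlap, 4 of the 10 were lower in K412R (Gcm1, Hand1, Ascl2 and Zfp36l3), or 3 of the 8 tested, where 10.2% of all genes tested were.

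Over the 12 libraries the genes fell apart by how they varied, which is given as a description of log2 CPM with no test, since libraries of a group share their construct. Prl3b1 followed Tpbpa most closely (Pearson r = 0.90, n = 12 libraries). Zfp36l3 followed Hand1 (0.82), Tpbpa (0.81) and Syna (0.80), and Syna followed Hand1 (0.81). Prl3d1 lay between 0.50 and 0.71 with these. Ascl2 had 0.55 with Hand1 and 0.49 with Syna, within the range of the former, and -0.18 with Prl3b1, its lowest value. Elf5 correlated with the others only between -0.01 and 0.24. Its median r was 0.51 with the 10 epithelial genes, where the other members lay between -0.74 (Hand1) and -0.18 (Prl3b1). With the 6 other prolactins tested it was 0.18, beside 0.25 for Ascl2. The remaining members lay between 0.66 (Prl3b1) and 0.82 (Zfp36l3) with these prolactins.

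**Figure D3:**
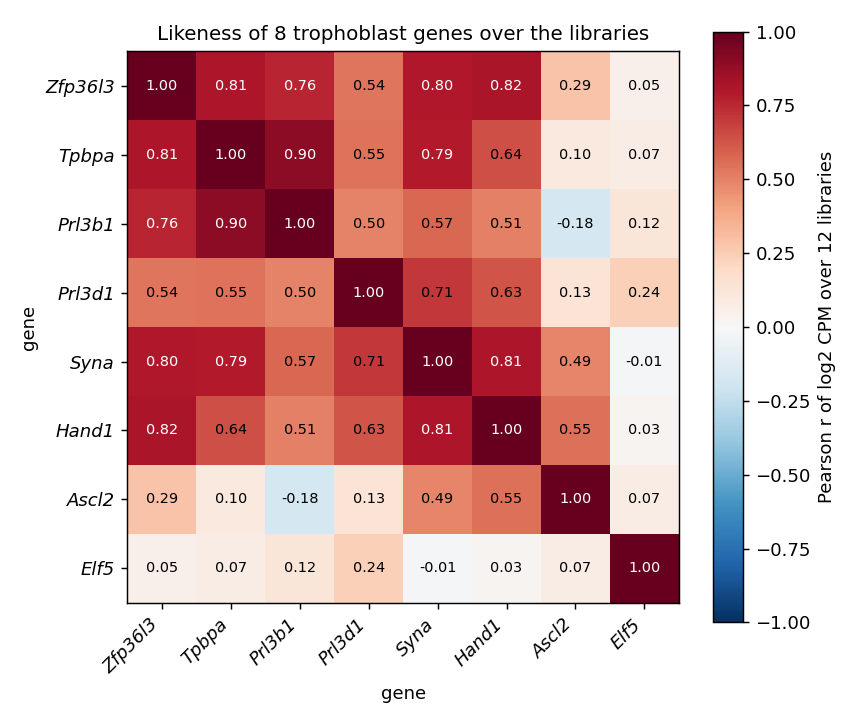
Pearson r of log2 CPM over the 12 libraries for each pair of the 8 tested trophoblast genes, on a colour scale from -1 to 1 with the value in each cell. Zfp36l3, Tpbpa, Prl3b1, Prl3d1, Syna and Hand1 form a block between 0.50 and 0.90, Ascl2 ranges from -0.18 to 0.55 with them, and Elf5 stays at or under 0.24 with all of them.

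The genes most like each member among all those tested were named by the same measure, leaving out symbols without a gene name. For Syna these were Rhox9 (0.96), Rhox6 (0.94), Esx1 (0.94), Serpinb9g (0.94) and Plekhh1 (0.93), of which the Rhox genes and Esx1 are homeobox genes of the X chromosome known from the placenta. For Prl3d1 they were Sfmbt2 (0.88), a Polycomb protein needed in trophoblast, the prolactin genes Prl2c3 (0.87) and Prl4a1 (0.84), and Mlst8 and Sort1. For Hand1 they were Pramel13 (0.94), Dcaf15 (0.94), the imprinted placental growth regulator Phlda2 (0.93), and the germ cell genes Dmrtb1 (0.92) and Asz1 (0.91). Zfp36l3 was nearest to Cxxc1 (0.97), Otud6a, Bend2, Zbtb17 and the meiotic gene Sycp1 (0.93). Prl3b1 was nearest to Mpst (0.93), Jmjd8, Hcar1, Sox6 and Tpbpa, and Tpbpa to Gtpbp1 (0.94), Fuz, Mcat, Letmd1 and Dnajc22. The list for Elf5 held no placental gene known as such and was led by Fam83f (0.91), Chrna6 and Lmx1a, and that for Ascl2 by the tRNA synthetases Gars (0.92) and Mars1 (0.86). With 12 libraries and low counts, such ranks rest on few reads.

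Wider lists of placental genes were read beside the 10. Of 22 other placental prolactins, 2 had no count in any library and 6 could be tested. Their summed level ranged from 1.36 to 7.51 CPM in ET, 0.446 to 1.12 in WT, 7.22 to 24.7 in the K238R-labelled libraries and 4.27 to 6.52 in K412R, so that WT lay below all other libraries. Prl2b1 was called against WT in K412R and in the K238R-labelled libraries. WT had 0, 1 and 0 counts of it, below the 5, 6 and 10 of ET, the 26, 10 and 17 of the K238R-labelled libraries and the 15, 17 and 16 of K412R. The ratio to WT was 51.4 (8.83 to 2066, adjusted p = 0.0267) in the K238R-labelled libraries and 47.8 (8.18 to 1928, adjusted p = 0.0110) in K412R, with intervals of counting error only. No WT or ET library of Prl2b1 was over 0.559 CPM, so it was tested only through the groups in which it was higher. With each of the 12 libraries left out in turn the call was kept in 6 fits for the K238R-labelled libraries (adjusted p from 0.00564 to 0.137) and in 9 for K412R (0.00660 to 0.0696), and it was lost in both without WT replicate 3 and without K412R replicates 1 or 3. The former was also lost without WT replicate 2 and without K238R-labelled replicates 1 or 3. Prl2c3, with the most counts of the list, had 4, 4 and 47 counts in ET, 5, 0 and 0 for WT, 109, 39 and 35 in the K238R-labelled libraries and 32, 11 and 9 in K412R, without a call (lowest adjusted p = 0.104, in the K238R-labelled libraries against WT). Of 8 placental cathepsins, the proteases of giant cells and labyrinth, only Ctsj could be tested. It had 8, 3 and 9 counts in ET, 6, 1 and 4 for WT, 81, 16 and 42 in the K238R-labelled libraries and 10, 9 and 21 in K412R, and its log2 fold change in the K238R-labelled libraries against WT was 3.51 (SE 0.69, adjusted p = 0.0684).

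In lists that hold more widely expressed genes the members differed among themselves. Among 13 pregnancy-specific glycoproteins, 3 could be tested and none was called, and Psg16, which made up most of their counts, was higher in mean in WT (6.99 CPM) than in ET (4.13), the K238R-labelled libraries (5.97) or K412R (4.51). Psg20 was also highest in WT, with 13, 11 and 10 counts against 1, 6 and 1 in ET. It had 2, 1 and 1 counts in the K238R-labelled libraries and 3, 4 and 9 in K412R. Its log2 fold change was 2.04 (SE 0.64, adjusted p = 0.110) for WT against ET. For the K238R-labelled libraries against WT it was -3.06 (SE 0.71, adjusted p = 0.0931). Psg29 was lowest in WT, with 1, 0 and 0 counts against 7, 0 and 16 in ET, 52, 3 and 4 in the K238R-labelled libraries and 8, 8 and 16 in K412R. Its ratio to WT was 57.2 (9.87 to 2296, counting error only, adjusted p = 0.156) in the K238R-labelled libraries and 31.9 (5.33 to 1298, adjusted p = 0.160) in K412R, and that of WT to ET 0.0429 (0.00104 to 0.264, adjusted p = 0.165). Like Prl2b1 it had no WT library over 0.559 CPM, and K238R-labelled replicate 1 held 52 of the 59 counts. Among 11 regulators of trophoblast stem cells, all tested, only Eomes was called, higher in K412R than in WT (log2 fold change 1.41, SE 0.32, adjusted p = 0.0479), a call kept in 4 of the 12 fits without 1 library (adjusted p from 0.0206 to 0.207). Those fits left out ET replicate 2, ET replicate 3, WT replicate 1 or K238R-labelled replicate 1. Eomes had 66, 39 and 28 counts in WT, below every library of ET (93, 142 and 118), and its log2 fold change there was -1.41 (SE 0.32, adjusted p = 0.100). Cdx2 and Tfap2c, chosen here after their values were seen, were with Eomes the 3 genes of the list with an unadjusted p under 0.05 for WT against ET. Cdx2, which sets up the trophoblast lineage and later acts in gut, averaged 0.206 CPM in WT, 0.784 in ET, 0.508 in the K238R-labelled libraries and 0.505 in K412R, with a log2 fold change of -1.87 (SE 0.76, adjusted p = 0.141) against ET. Tfap2c, a trophoblast factor also made by epithelium and germ cells, averaged 2.31 CPM in WT, 5.23 in ET, 4.80 in the K238R-labelled libraries and 4.36 in K412R (-1.17, SE 0.44, adjusted p = 0.127 against ET). Eomes also acts in mesendoderm, and Fgfr2, Ets2 and Gata3 of this list are made by many tissues. The summed level of the list, mostly that of these 3, ranged from 156 to 196 CPM over all 12 libraries. Of 10 spongiotrophoblast and glycogen cell genes 9 were tested, and of 11 syncytiotrophoblast genes all 11, with no call. Both sums were made up mostly of genes such as Igf2, Peg10 and Slc16a1 that are not limited to placenta. In the syncytiotrophoblast list, 7 of the 11 genes were higher in WT than in ET by log2 fold change and 4 were lower. Synb had 3, 17 and 0 counts in ET and 0, 15 and 19 in WT. The K238R-labelled libraries had 25, 0 and 4 counts of Synb and K412R had 3, 4 and 12. Rhox6 and Rhox9 were among the lower genes, with 11, 2 and 3 and with 20, 0 and 1 counts in WT. In ET they had 39, 3 and 91 and 37, 3 and 106 counts. Rhox6 had a log2 fold change of 4.15 (SE 0.92, adjusted p = 0.0887) in the K238R-labelled libraries against WT.

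Markers of other tissues moved with the groups as well. The summed level of 10 yolk sac endoderm genes, of which 9 were tested without a call, ranged from 83.6 to 135 CPM in ET, 34.1 to 71.4 in WT, 98.0 to 117 in the K238R-labelled libraries and 94.4 to 101 in K412R. The summed level of WT was thus lowest here as for the prolactins, but the members differed. By log2 fold change, 6 of the 9 tested were lower in WT than in ET and 3 were higher. Amn had 14, 22 and 12 counts in ET and 34, 18 and 36 in WT. Most of the sum was Foxa2, a factor of definitive and visceral endoderm, and the defining yolk sac genes Afp and Apoa4 had at most 25 counts in a library. Of 8 gut epithelium genes, Olfm4 was called higher in K412R than in WT (log2 fold change 1.40, SE 0.27, adjusted p = 0.0309), a call kept in 7 of 12 fits without 1 library (adjusted p from 0.00779 to 0.128) and lost when any K412R library, WT replicate 2 or WT replicate 3 was left out. Their summed level overlapped between all groups. The part of these tissues in the trophoblast values was not tested.

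**Figure D4:**
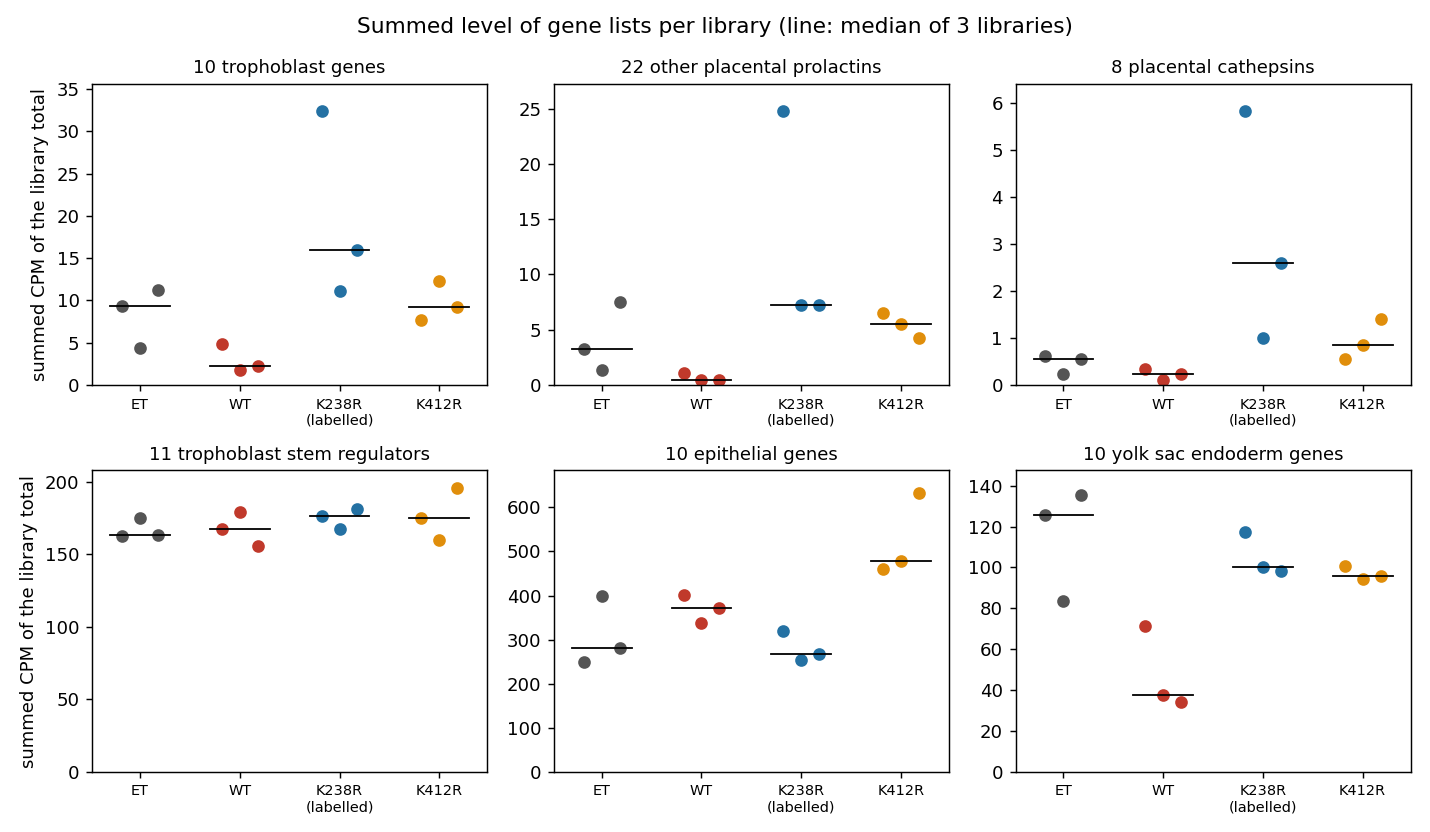
Summed CPM of the library total (vertical axis) for the 10 trophoblast genes and 5 further lists in each library of the 4 groups, with the median of 3 libraries as a line. WT has the lowest median for the trophoblast genes, the other prolactins and the yolk sac endoderm genes, the stem regulators stay between 156 and 196 CPM, and K412R is highest for the epithelial genes.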

How the data were processed

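Poly(A)-selected RNA of 12 teratomas (3 each of ET, WT, K238R and K412R) was sequenced from both ends with the CORALL kit. Trimming by the authors was with Fastp, mapping with STAR and quantification with Salmon. An estimated count per gene was deposited by the authors as a whole number, with no normalization. The submitters' processing notes also name GRCm39 and GATK without a role, and use of molecular identifiers is not given in the sources used here.

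Counts of 38986 symbols were read as deposited, and 7918 had none. TMM scaling, filterByExpr and the robust quasi-likelihood test of edgeR 4.0.16 (R 4.3.3) were applied to the 12 libraries together with a mean for each group, and p-values were adjusted over 18405 genes, with a threshold of 0.05. The study's methods name DESeq2 (here 1.42.0, as an alternative). On counts simulated with 200 genes changed 4-fold, the fit of WT against ET recovered 162 with 8 false calls over 18159 genes. The changed genes were drawn only from those above a low mean count, and no outlying library was simulated. The share recovered is therefore not that of the trophoblast genes. Ratios of summed counts have exact 95% intervals, with 3 counts over a group as the limit for 0. Log2 CPM with a prior count of 2 gave correlations. Promoters came from RefSeq's GRCm38.p6.

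The genes and lists were chosen with earlier results of these data known. Named genes are the 10 members, called genes or the up to 4 most abundant of each list, and the 5 most like each member. Nkx2-5, Mesp1, Myl7, Afp and Apoa4 were named for their role, with their values seen. Cdx2, Tfap2c, Synb and Amn were named after their values were seen, and Rhox6, Rhox9 and Prl4a1 came from the likeness rule. Replicates differed by more than sampling noise, their chi-square over degrees of freedom being 10.5 to 52.6. The labels do not state separate cell cultures, so p-values measure only the spread between these samples. Alternatives were 2 other scalings, DESeq2, no filter, 2 groups alone, a replicate block, each library left out and, chosen after seeing the data, no robust shrinkage and edgeR's newer quasi-likelihood method.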

Additional observations from a re-analysis of the deposited data

How the results depend on the processing

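The number of trophoblast genes called depended most on the tool and on single libraries. DESeq2 called 1 in WT against ET, 5 in the K238R-labelled libraries against WT, 3 in K412R against WT and 1 in K412R against the K238R-labelled libraries, where edgeR called 0, 1, 1 and 0. Scaling to the library total left 0 in the K238R-labelled libraries against WT. Fitting the 2 groups alone called 3 in K412R against WT, of 4 genes that could then be tested, beside 1877 of all 17680 genes tested. With each of the 12 libraries left out in turn, the count lay between 0 and 3 in each of the 3 comparisons with WT and stayed at 0 in the other 3, and all the counts of 3 came without ET replicate 2. Without it edgeR called Syna, Tpbpa and Zfp36l3 in WT against ET, beside 5784 of all 18775 genes then tested. Over all genes that fit called 812 in the K238R-labelled libraries against WT and 1526 in K412R against WT. The call of Zfp36l3 in the K238R-labelled libraries was kept in 4 of these 12 fits and that of Prl3b1 in K412R in 2.

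Whether the replicate numbers of the titles pair the samples is not stated and could not be settled from the counts. Deviations of same-numbered libraries correlated between -0.263 and 0.391, with 7 of 18 pairs over 0.1 and 6 of 12 libraries closest to their own number. With the number as a block, 2 genes were called in K412R against WT (Prl3b1 and Zfp36l3), and the near-zero difference of Zfp36l3 between K412R and ET went from -0.051 to 0.076. The block raised the calls over all genes from 9 to 926 in WT against ET, from 41 to 203 in the K238R-labelled libraries against WT and from 375 to 1131 in K412R against WT. DESeq2 gave 1898, 786 and 1657.

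Of 48 log2 fold changes, 10 changed sign when a library was left out. These were Ascl2 in WT against ET (-0.44 to 0.70), in the K238R-labelled libraries against WT (-0.35 to 0.78) and in K412R against WT (-1.06 to 0.076), Elf5 in WT against ET (-0.069 to 1.40), and Syna in the K238R-labelled libraries against ET (-0.017 to 2.11). K412R against ET changed sign for Syna (-1.17 to 0.45), Zfp36l3 (-0.41 to 0.31) and Prl3d1, which lost its ET counts without ET replicate 3. K412R against the K238R-labelled libraries did so for Prl3b1 (-0.37 to 0.83) and Tpbpa (-0.56 to 0.82). For Prl3d1 the range was -0.80 to 5.70. None of these was called. The level of Ascl2 in the K238R-labelled libraries went from 0.563 to 0.621 CPM without Gm26917. With 7 to 156 counts of the most abundant gene in a library, depth limits every value given here.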
